A study of Mus musculus with 48 samples.

Results

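Terminally exhausted CD8 T cells edited at Zfp219 in young mice were compared with cells of the same state that carried the control the labels call OTC. The comparison takes 6 of the 48 ATAC-seq libraries of the series, 3 Zfp219 and 3 OTC, chosen by their sample titles, and uses all 53868 peaks of the deposited table. ATAC-seq uses the Tn5 transposase to insert adapters into open chromatin, so that reads pile up over accessible sites. A value here is the number of reads in a peak divided by a scaling factor of its library, called normalized reads below.

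The cells of every group were Cas9-expressing OT-1 CD8 T cells of CD45.1 donors, whose T cell receptor recognises an ovalbumin peptide, transduced with a lentiviral guide RNA vector that also encodes the reporter ametrine. They were transferred the day before B16-OVA melanoma cells, a mouse melanoma line expressing ovalbumin, were injected, and were sorted from tumours after 15 days. The labels name the edited groups Zfp219KO and Dusp5KO and the third group OTC control, and the letters Y and A in the titles were read as young and aged hosts. Sorting used Slamf6 and Tim-3: terminal cells (Tterm) carried Tim-3 alone, transitional cells (Ttran) both proteins, and progenitor cells (Tprog) Slamf6 alone. Cas9, the vector and the transfer are common to Zfp219, Dusp5 and OTC libraries, so none of the groups is unmanipulated. Each library pooled cells of several mice, 5000 to 50000 cells for a perturbation and state. The main p-values and standard errors rest on the spread between such pools. That spread was estimated for each peak over all 48 libraries in 21 groups, not over the compared libraries alone. Which mice entered which pool is not given in the sources used here, and the libraries hold no measure of how many cells lost Zfp219.

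Zfp219 encodes a nuclear protein with zinc fingers, a fold that many DNA-binding proteins use. Exhaustion is the state that CD8 T cells enter under lasting antigen exposure in tumours and chronic infection; progenitor cells express the transcription factor TCF-1, encoded by Tcf7, and renew themselves, while terminal cells express Tim-3 and other inhibitory receptors and have lost most of that capacity. The step between these states is accompanied by wide changes in accessible chromatin.

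The libraries were deep and alike in depth. Reads in peaks numbered 18521013 to 20073943 in the Zfp219 libraries and 16737521 to 23362020 in the OTC libraries. Replicates of a group correlated across peaks with a Pearson's r of 0.974 to 0.978 on the log2 scale, a description over peaks of shared libraries. Peaks near CD8 T cell genes were strong: all 8 listed genes (Cd3d, Cd3e, Cd3g, Cd8a, Cd8b1, Cd2, Cd5 and Lck) had a peak, and their summed value was 21607 to 22111 in the Zfp219 libraries and 23419 to 23961 in the OTC libraries. Sums for markers of other cells were 4805 to 5016 against 4511 to 4673 for NK cells (4 of 4 genes with a peak), 2183 to 2241 against 2320 to 2372 for CD4 and regulatory T cells (3 of 4), 2162 to 2503 against 2134 to 2282 for myeloid cells (4 of 7), 639 to 721 against 606 to 652 for B cells (2 of 6) and 1265 to 1287 against 1269 to 1328 for B16 melanoma (4 of 7). The CD8 and CD4 sums were lower and the NK sums higher in every Zfp219 library than in every OTC library, and their part in the results was not tested.

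Accessibility at Zfp219 itself did not pass the test. The peak over its transcription start (chr14:52019226-52020740, mm10) had 1099.98, 1109.6 and 1017 normalized reads in the Zfp219 libraries and 1035, 1181 and 1033 in the OTC libraries. The groups overlapped, and the log2 fold change was -0.01 ± 0.07 (standard error, 3 libraries a group; limma adjusted p = 0.994). The peak in the gene body at chr14:52008652-52009248 changed by -0.08 ± 0.19 and the peak 1560 bp outside the gene by 0.06 ± 0.11 on the log2 scale. These peaks measure open chromatin and do not show whether the coding sequence was cut.

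Accessibility changed at few sites. In the Zfp219 libraries 148 peaks passed limma's test at a Benjamini-Hochberg adjusted p under 0.05 (0.275% of the peaks tested), 43 higher (0.0798%) and 105 lower (0.195%). A further 4173 peaks had an unadjusted p under 0.05. The called rises were on the median larger than the called falls. The median log2 fold change was 0.79 over the 43 peaks (0.14 to 2.59) and -0.39 over the 105 (-3.08 to -0.21), against 0.00 over all peaks. Both sets were chosen by p, and the higher calls lay on the median at weaker peaks, 122 against 638 normalized reads. Where the standard error is larger, only a larger change can pass, so these medians do not compare rises with falls in general. Of the 43 higher peaks, 14 rose by at least 1 on the log2 scale, and of the 105 lower peaks 8 fell by as much. Over all peaks 906 changed by at least 1 in either direction, most of them not called. The 3 Zfp219 values lay entirely above the 3 OTC values at 42 of the 43 higher peaks and entirely below them at 104 of the 105 lower peaks; over all peaks those shares were 9.59% and 10.3%. The calls gave 125 different assigned genes. In sorted bulk cells, fewer cells with an open site and less opening in each cell cannot be told apart.

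The number of calls depended on the fit, and their split by direction on 1 library. A fit of the 6 libraries alone called 1378 peaks (2.56%), 508 higher and 870 lower, and held 147 of the 148. edgeR's quasi-likelihood test on whole reads called 276 (0.512%), 109 higher and 167 lower, and also held 147 of the 148. Quantile normalization called 86 (0.16%), 34 higher and 52 lower, so that higher peaks made up 39.5% of the calls against 29.1%. Library quality weights gave 1496 calls (2.78%). Leaving out OTC library 1, 2 or 3 left 55, 49 or 51 calls, and leaving out Zfp219 library 1, 2 or 3 left 38, 58 or 45. Lower calls outnumbered higher ones in 5 of these 6 fits, and without OTC library 2 there were 25 higher and 24 lower. In all 6 of these smaller fits 16 of the 148 peaks were called, and 51 in none of them. Those 16 include the peaks at Hspa1a, Hspa1b, Hsp90aa1, Thy1, D430041D05Rik, Ccl1, Fam78a, Prex1 and Bmf, 3 at Vgll4 and 1 of the Septin9 peaks. They also include a peak with no gene within 100 kb that is described with the rises. Any other called peak named below lost its call in at least 1 of the 6.

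**Figure D1:**
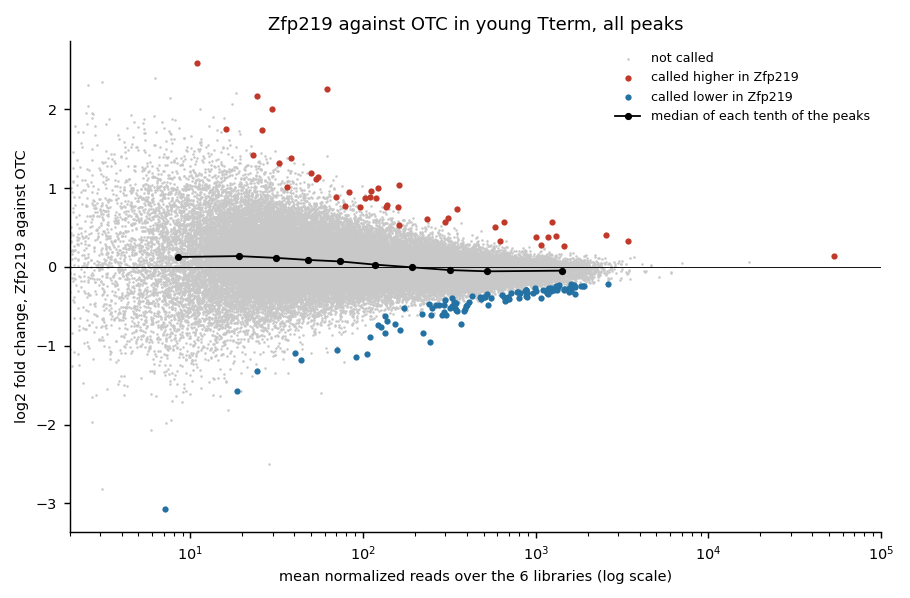
Log2 fold change of Zfp219 against OTC in young Tterm for each peak (vertical axis) by its mean over the 6 libraries (horizontal axis, log scale), with 43 peaks called higher and 105 called lower in colour and the median of each of 10 equal bins of the peaks by strength as a line. The line runs from 0.14 in the weaker bins to -0.05 in the strongest, and the lower calls sit mostly at the strong end; 309 peaks with a mean under 2 are not drawn.

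Lower calls were on the median at stronger sites than higher calls. The median value over the 6 libraries was 638 normalized reads for the lower peaks, 122 for the higher peaks and 91.7 for all peaks. Of the 105 lower peaks, 49 belonged to the strongest of 10 equal bins of all peaks, as did 9 of the 43 higher peaks. The same bin as a whole leaned down, with 71.2% of its peaks below 0 and a median log2 fold change of -0.05, while the weaker 5 bins had medians of 0.07 to 0.14. Summed over peaks, the values were 12878167 to 12910512 in the Zfp219 libraries and 13139546 to 13160336 in the OTC libraries. The part of this lean in the lower calls was not tested. Transcription starts lay in 14 of the lower and 3 of the higher peaks, 13.3% and 6.98%, against 16.8% of all peaks. Gene bodies held a further 59 and 22, 56.2% and 51.2%, against 47.4% of all peaks.

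Several of the rises with the smallest p were at genes of heat shock proteins, the chaperones that refold damaged proteins and that cells switch on under protein stress. At Hspa1a, which encodes an inducible HSP70, the peak chr17:34968399-34972680 holds the whole gene and had 3881, 3731 and 3886 normalized reads in the Zfp219 libraries and 2980.03, 3076 and 3059.6 in the OTC libraries. All 3 Zfp219 values lay above all 3 OTC values, a log2 fold change of 0.33 ± 0.05 (limma adjusted p = 1.54e-05). Its neighbour and near copy Hspa1b (chr17:34957005-34960196) had 2907, 2839 and 2961 against 2168, 2159 and 2252. The groups were again apart, with a log2 fold change of 0.40 ± 0.05 (limma adjusted p = 9.68e-07). Because the genes are nearly identical, reads may be divided between them in an uncertain way.

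Hsp90aa1, which encodes the inducible form of HSP90, rose more. Its peak at chr12:110688567-110691123 covers the lower-numbered end of the gene (chr12:110691036-110696395) and lies mostly beyond it. It had 1504, 1454 and 1520.4 normalized reads against 1037, 1025 and 957. Every Zfp219 value exceeded every OTC value, and the log2 fold change was 0.57 ± 0.08 (limma adjusted p = 9.68e-07). Dnajb1 encodes an HSP40 that hands substrates to HSP70. Its peak at chr8:83612304-83614223, over the 3′ end of the gene, had 792, 764 and 780.1 against 504, 506 and 568, with no overlap and a log2 fold change of 0.57 ± 0.11 (limma adjusted p = 0.00616). Hspa8 encodes the constitutive HSP70 relative. A peak 411 bp outside the gene (chr9:40805613-40808272) had 1545, 1418 and 1468 against 1179, 1081 and 1121, with groups apart and a log2 fold change of 0.39 ± 0.09 (limma adjusted p = 0.0169). A peak over the 3′ end of Slc35b2 that also reaches the lower-numbered end of Hsp90ab1, at position 45567778 (chr17:45566023-45568103), had 1120.2, 1163 and 1137 against 852, 912 and 863, a log2 fold change of 0.38 ± 0.08 (limma adjusted p = 0.0156). Dnajb1, Hspa8 and the Slc35b2 peak were chosen after their values were seen.

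A list of 20 heat shock chaperone genes, also drawn up after these values were seen and so given no test, had 53 peaks near 19 of them. Of these 53, 5 were called higher (9.43%, against 0.0798% of all peaks) and 0 lower. The median log2 fold change of the 53 was 0.11 against 0.00 over all peaks. edgeR and the quantile-normalized fit each called 5 higher and 0 lower, where they called 109 and 34 higher over all peaks. The peak shared with Slc35b2 is counted under that gene and is not among the 5.

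**Figure D2:**
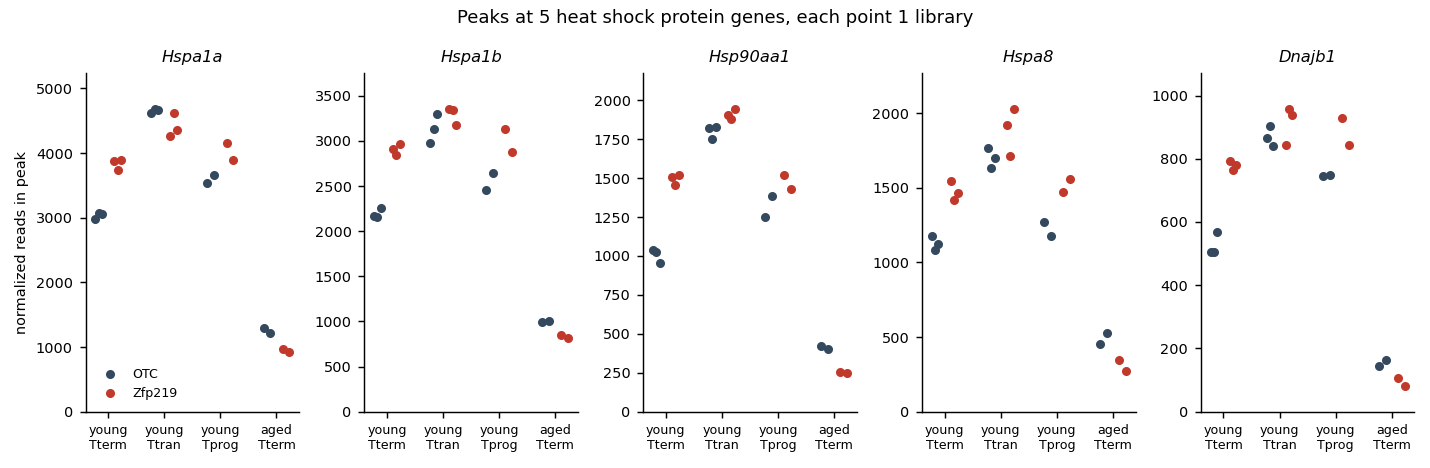
Normalized reads in the peaks at 5 heat shock protein genes (vertical axis, from 0), each point 1 library, for OTC and Zfp219 in young Tterm, young Ttran, young Tprog and aged Tterm (horizontal axis). In young Tterm all Zfp219 points lie above all OTC points at each gene, and in aged Tterm all lie below, for example 3731 to 3886 against 2980.03 to 3076 and 920.1 to 970.3 against 1223 to 1297 at Hspa1a.

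At the heat shock genes with a peak at each end, the called peak was at 1 end. Dnajb1 had a log2 fold change of 0.57 at its 3′ end and 0.01 ± 0.06 at its start, where the Zfp219 libraries had 1681, 1734 and 1638 normalized reads and the OTC libraries 1631, 1597 and 1778. Over the start peaks of 14 heat shock genes with a known strand the median was 0.01 (-0.08 to 0.40), and only those of Hspa1a and Hspa1b were called. Over the 7 peaks at 3′ ends (the end in the peak, or the peak within 2000 bp past it, and no start in it) the median was 0.24 (-0.09 to 0.57), and only that of Dnajb1 was called. Hsph1, an HSP110, had 1192, 1214 and 1214 against 1058, 947 and 1055 at its 3′ end, a log2 fold change of 0.24 ± 0.09 that did not pass (limma adjusted p = 0.385), and 0.01 at its start. For Hsp90aa1, Hsp90ab1 and Hspa8 the annotation used here gave no strand, so their starts and 3′ ends were not told apart. Their called ends stood at 0.57, 0.38 and 0.39 and their other ends at -0.02, 0.05 and 0.06. Peaks at 3′ ends of genes with a known strand made up 3.25% of all peaks. They were 2 of the 43 higher calls (4.65%) and 7 of the 105 lower calls (6.67%). The called peaks at Hsp90aa1 and Hspa8 could not enter this count. The comparison of gene ends was added after these values were seen.

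**Figure D3:**
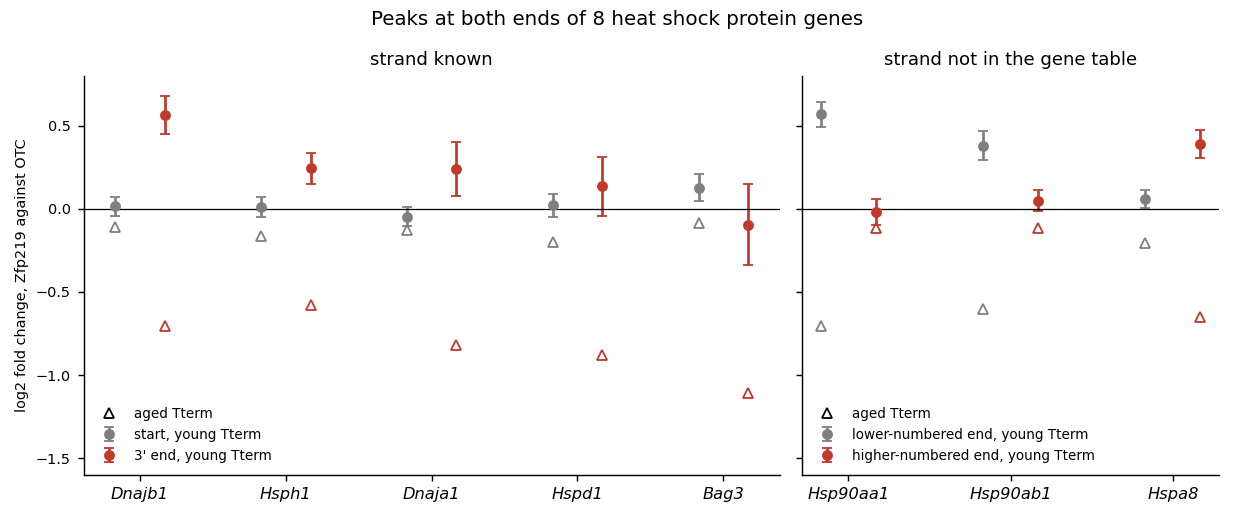
Log2 fold change of Zfp219 against OTC (vertical axis) at peaks over both ends of 8 heat shock protein genes (horizontal axis), filled points with standard error for young Tterm and open triangles for aged Tterm. At Dnajb1 the 3′ end stands at 0.57 and the start at 0.01 in young Tterm, and the 3′ end stands at -0.70 in aged Tterm.

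The promoters of Hspa1a and Hspa1b lie inside the called peaks and are shown with that of Ccl1, the called peak over a start with the largest fall (described further on). The windows are the 250 bases before the RefSeq start on GRCm38.p6, written 5′ to 3′ on the gene's strand, chr17:34972157-34972406 (minus), chr17:34959239-34959488 (minus) and chr11:82179813-82180062 (minus). Capitals mark matches on either strand to paired heat shock units (GAANNTTC or TTCNNGAA) in the HSP70 genes and to the CCAAT box (CCAAT or ATTGG) in Ccl1.
Hspa1a: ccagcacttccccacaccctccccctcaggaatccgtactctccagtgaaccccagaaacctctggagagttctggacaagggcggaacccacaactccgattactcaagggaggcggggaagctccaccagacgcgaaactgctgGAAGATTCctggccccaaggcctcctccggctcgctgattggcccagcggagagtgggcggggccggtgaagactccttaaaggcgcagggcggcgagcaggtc
Hspa1b: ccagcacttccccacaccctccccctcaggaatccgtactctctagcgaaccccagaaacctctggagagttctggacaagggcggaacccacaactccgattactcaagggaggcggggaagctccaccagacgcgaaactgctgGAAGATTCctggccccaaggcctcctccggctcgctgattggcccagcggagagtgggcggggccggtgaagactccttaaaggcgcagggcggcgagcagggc
Ccl1: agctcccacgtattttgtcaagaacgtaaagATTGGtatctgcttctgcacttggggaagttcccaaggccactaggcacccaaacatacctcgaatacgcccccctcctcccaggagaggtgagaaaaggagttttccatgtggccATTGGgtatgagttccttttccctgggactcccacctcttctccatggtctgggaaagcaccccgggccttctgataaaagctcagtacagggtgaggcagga
The 2 HSP70 windows are identical at 247 of 250 bases. Each holds 1 match to paired heat shock units, with its first base 104 bases before the start; 11.8% of the 21262 promoter windows of this length hold such a match. The full heat shock element, with a further such unit, has no match in them and occurs in 0.386% of windows. Ccl1 has 2 matches to the CCAAT box, which 35.4% of windows hold.

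Thy1, which encodes the T cell surface glycoprotein CD90, also rose. Its peak in the gene body (chr9:44046603-44047436) had 465, 432 and 421 normalized reads in the Zfp219 libraries and 279, 262 and 248 in the OTC libraries. The groups were well apart, with a log2 fold change of 0.74 ± 0.12 (limma adjusted p = 6.87e-05). Young Dusp5 Tterm libraries, which share host age and state, had 217, 215 and 203. The tested difference of Zfp219 from Dusp5 was 1.05 (limma adjusted p = 1.8e-10), in a test that reuses the Zfp219 values that made the call.

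Rises that were larger on the log2 scale lay at weak peaks. A site in the body of D430041D05Rik (chr2:104388790-104389506) had 94.8, 108 and 108 normalized reads against 22.8, 20.4 and 19.1, a log2 fold change of 2.27 ± 0.35 (limma adjusted p = 4.12e-05). The Zfp219 values were the higher without exception. A peak 35985 bp from Abca1, which encodes a cholesterol exporter, had 46.0, 38.7 and 34.6 against 4.42, 11.8 and 9.56, a log2 fold change of 2.17 ± 0.43 (limma adjusted p = 0.00413). A peak in Chl1, a neural adhesion molecule gene, had 40.4, 40.7 and 41.1 against 11.4, 11.8 and 11.2, a log2 fold change of 1.74 ± 0.41 (limma adjusted p = 0.0311). Neither pair of groups overlapped. Among called peaks with a mean of at least 20 normalized reads, no overlap between groups and an assigned gene, 1 peak a gene, the others of the 10 largest rises were peaks assigned to Cfap74 (2.00), Slit3 (1.42), Hpd (1.38), Dlc1 (1.32), Pifo (1.20), Ebf2 (1.15) and Glb1 (1.11), with mean values of at most 55.2 normalized reads over the 6 libraries and limma adjusted p of 0.0093 to 0.041. Several are genes of other tissues: Ebf2 encodes a transcription factor of fat and neural cells, Hpd an enzyme of tyrosine breakdown in liver, and Slit3 a guidance cue. Dlc1 had a second called peak with 123, 137 and 139.9 against 67.0, 81.8 and 68.6, a log2 fold change of 0.88 ± 0.19 (limma adjusted p = 0.014). A peak with no gene within 100 kb (chr17:13550716-13553143, chosen after its value was seen) had 1372, 1327 and 1306 against 1031, 1017 and 1015, with groups apart and a log2 fold change of 0.39 ± 0.05 (limma adjusted p = 2.66e-06), and was called with any 1 library left out. Among the higher calls, 4 lay on 1 unplaced scaffold, where read placement is uncertain, and unplaced scaffolds held 0.650% to 0.669% of the values of the Zfp219 libraries and 0.582% to 0.597% of those of the OTC libraries.

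**Figure D4:**
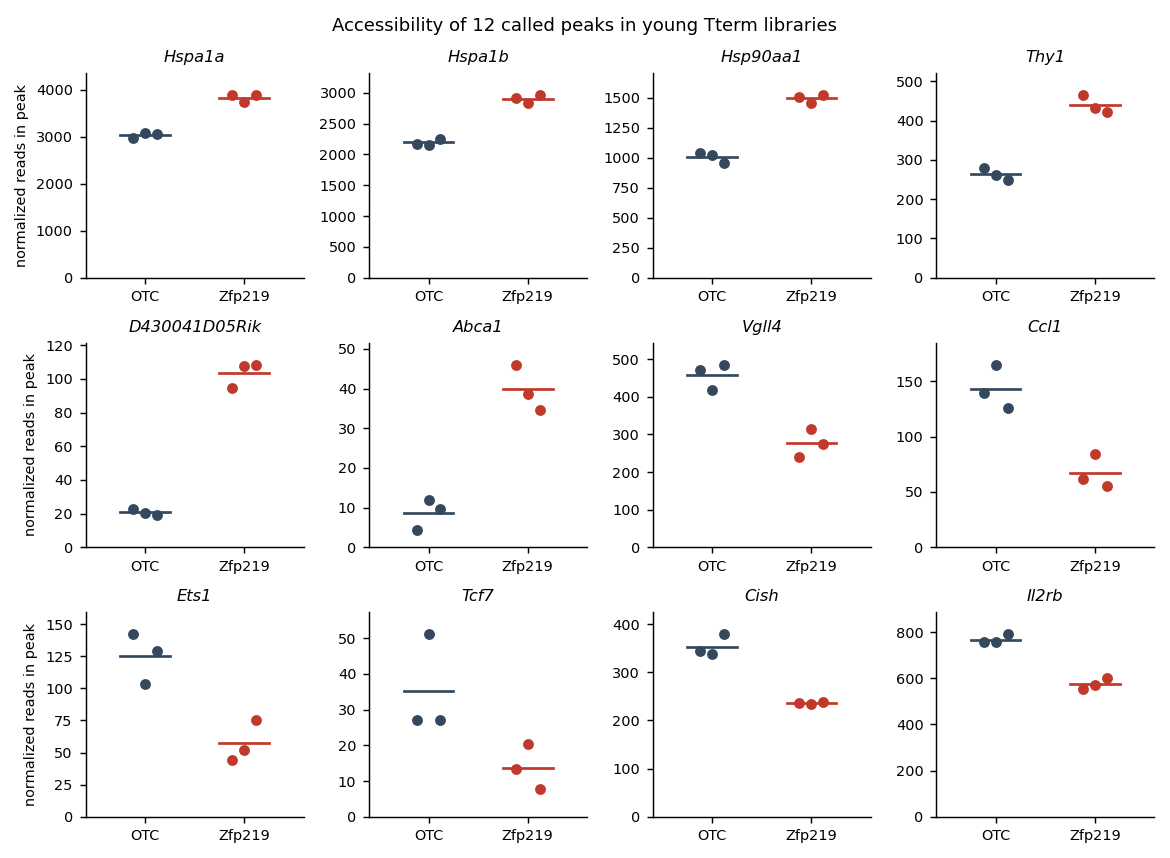
Normalized reads in each of the 6 libraries (points; horizontal lines are group means, 3 libraries a group) for 12 called peaks, with the OTC and Zfp219 libraries of young Tterm side by side and a separate vertical axis from 0 for each peak. In each of the 12 panels the Zfp219 points lie on one side of the OTC points, for example 421 to 465 against 248 to 279 at Thy1 and 55.2 to 84.6 against 126 to 165 at Ccl1.

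Among called peaks with a mean of at least 20 normalized reads, no overlap and an assigned gene, the largest fall was at a progenitor gene. Tcf7 encodes TCF-1, and its called peak, in the gene body (chr11:52268178-52268844), had 13.2, 20.3 and 7.7 normalized reads in the Zfp219 libraries and 27.2, 51.1 and 27.0 in the OTC libraries. The groups did not overlap, and the log2 fold change was -1.32 ± 0.26 (limma adjusted p = 0.00341). Both groups were low here beside the young Tprog libraries, which had 298 and 426 (Zfp219) and 323 and 376 (OTC). It was 1 of 12 peaks near Tcf7 and the only one called. A peak 1263 bp outside Ets1, which encodes a lymphoid transcription factor, had 43.9, 51.8 and 75.7 against 142, 104 and 129, a log2 fold change of -1.14 ± 0.24 (limma adjusted p = 0.00699).

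Ccl1, which encodes a chemokine that binds CCR8, lost accessibility at its start. The peak chr11:82179619-82180189 had 61.3, 84.6 and 55.2 normalized reads against 139, 165 and 126. The groups were apart by a wide margin, with a log2 fold change of -1.10 ± 0.19 (limma adjusted p = 0.000712). A peak 8515 bp outside Ccr8, the gene of that receptor, was also called, at -0.38 (limma adjusted p = 0.0319); it was chosen after its value was seen.

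Vgll4, whose product binds TEAD transcription factors and limits their activity, had 3 called peaks, all lower. The peak chr6:114934215-114934592 had 154, 194 and 148 normalized reads against 301, 346 and 314, a log2 fold change of -0.96 ± 0.15 (limma adjusted p = 7.55e-05). The peak chr6:114930834-114931599 had 148, 156 and 175 against 307, 264 and 285, and fell by 0.83 on the log2 scale (limma adjusted p = 0.000485). The peak chr6:114936071-114937126 had 241, 315 and 275 against 471, 419 and 485, and fell by 0.73 (limma adjusted p = 6.89e-05). At none of the 3 did the groups overlap.

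Rora, which encodes a nuclear receptor active in T cells and innate lymphoid cells, had 4 called peaks, the highest count for a gene. Genes with more assigned peaks had more tests. The counts for Rora, Vgll4 and the genes below were not set against the number of peaks of each gene. At the peak chr9:69339781-69341024 the Zfp219 libraries had 284, 301 and 287 and the OTC libraries 409, 463 and 337, a log2 fold change of -0.46 ± 0.09 (limma adjusted p = 0.00616). The other 3 fell by 1.18, 0.68 and 0.30 on the log2 scale; at the first of these the groups overlapped, with 21.6, 15.7 and 43.6 against 87.2, 42.5 and 50.1. Sik1, a gene of a kinase that restrains CREB-dependent transcription, had 3 lower peaks at -0.50, -0.37 and -0.33. Cd82 (a tetraspanin), Ier3 (an early response gene), Septin9 (a cytoskeletal GTPase) and Tnfsf11 (the cytokine RANKL) had 2 lower peaks each, between -0.61 and -0.30. Septin9 had the strongest of these, with 1545, 1461 and 1455 against 1868, 1917 and 1893, a log2 fold change of -0.35 ± 0.06 (limma adjusted p = 0.000103). Fam78a had 929.9, 929 and 928 against 1248, 1278 and 1135, a log2 fold change of -0.39 ± 0.07 (limma adjusted p = 0.000408).

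Sites near genes of IL-2 signalling were among the falls. IL-2 acts through its receptor on STAT5, which induces the feedback inhibitor CIS, the product of Cish. A peak 313 bp outside Cish had 236, 234 and 238 normalized reads against 344, 337 and 379, a log2 fold change of -0.58 ± 0.11 (limma adjusted p = 0.00398). A second, 6197 bp outside, had 309.5, 362 and 326 against 420.3, 486 and 485, a log2 fold change of -0.48 (limma adjusted p = 0.00616). A peak 2594 bp outside Il2rb, the receptor beta chain gene, had 554, 569.6 and 601 against 756, 756 and 791, a log2 fold change of -0.42 ± 0.09 (limma adjusted p = 0.0136). No Zfp219 value reached an OTC value at these 3 peaks, while the strongest Il2rb peak was at -0.15 (limma adjusted p = 0.179). Stat5a itself had a lower peak in its body, with 241, 234 and 257 against 351, 309.8 and 361 (-0.48, limma adjusted p = 0.0269). A list of 13 IL-2 receptor and STAT5 genes was made after these values were seen and so given no test. Of its 93 peaks, 4 were called lower (4.30%, against 0.195% of all peaks) and 0 higher. The median over the 93 was -0.11, against 0.00 over all peaks and -0.05 in the strongest of 10 equal bins of all peaks. The quantile-normalized fit called 2 lower and 0 higher and edgeR 4 lower and 0 higher, where they called 52 and 167 lower over all peaks.

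NF-kB carries inflammatory signals into the nucleus and induces its own inhibitors. Peaks of 2 of these inhibitors were called lower: Nfkbia, 83 bp outside the gene, at -0.29 (limma adjusted p = 0.0435), and Tnfaip3, with 273, 282 and 292 against 396, 349 and 374 (-0.40, limma adjusted p = 0.0462). A list of 14 such genes was also made after the values were seen and given no test. Of its 124 peaks, 5 were called lower (4.03%, against 0.195% of all peaks) and 0 higher. The median over the 124 was -0.09. The quantile-normalized fit called 2 lower and edgeR 5, where they called 52 and 167 lower over all peaks. Sema4a, Sema4d and Sema7a, genes of semaphorins found on immune cells, had 1 lower peak each at -0.32, -0.31 and -0.30. They belong to a list of 8 semaphorin genes, also made after the values were seen and given no test. Of its 69 peaks, 3 were called lower (4.35%, against 0.195% of all peaks) and 0 higher, with a median of -0.10. After quantile normalization 2 of the 69 were called lower.

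Under the same conditions (a mean of at least 20 normalized reads, no overlap, an assigned gene, 1 peak a gene), the remaining peaks of the 10 largest falls lay near Zmiz1 (-1.05), Ank3 (-0.89), Nr4a3 (-0.84), Dock8 (-0.80), Ergic1 (-0.77) and Klri2 (-0.73). Nr4a3 encodes a nuclear receptor induced by T cell receptor signals; its called peak, 158 bp outside the gene, had 96.2, 97.8 and 94.3 normalized reads against 164, 177 and 178. Klri2, which encodes an NK lectin receptor, had 92.0, 93.2 and 89.2 against 154, 153 and 151. In both, the groups were apart, and the limma adjusted p were 0.0158 and 0.00889.

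Most exhaustion, progenitor and effector genes had no called peak. The shares of peaks called on the 3 lists were 0.463%, 0.459% and 0.599%, against 0.275% of all peaks. Over all 53868 peaks, 4321 had an unadjusted p under 0.05. Of 216 peaks near 21 exhaustion genes, 1 was lower (that of Nr4a3) and 0 higher, with a median log2 fold change of -0.04, and 18 had an unadjusted p under 0.05. Of 218 peaks near 18 progenitor genes, 1 was lower (that of Tcf7) and 0 higher (median -0.01; 15 unadjusted). Of 167 peaks near 20 effector and cytotoxic genes, 1 was lower (that of Il2rb) and 0 higher (median -0.10; 28 unadjusted). At Pdcd1, the gene of the inhibitory receptor PD-1, the strongest peak had 3132, 3035 and 3064 normalized reads against 3184, 3187 and 3201 (-0.05 ± 0.04, limma adjusted p = 0.868). All 3 Zfp219 values were below the OTC values there, by a margin that did not pass the test. The strongest peaks of Nr4a2, Nfatc1 and Bach2 changed by -0.02, -0.04 and -0.05, and that of Id2 by -0.15 (limma adjusted p = 0.32).

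Homing and signalling genes gave similar counts, to be read against the same 0.275% of all peaks called. Of 132 peaks near 13 residency and homing genes, 1 was lower and 0 higher (median -0.06; 12 unadjusted), at 1 of the starts of Runx3, a transcription factor of CD8 and tissue-resident cells, with 818, 725 and 775 against 1014, 959 and 893 (-0.31, limma adjusted p = 0.0398). The other Runx3 start was at -0.05. Limma called none of the 135 peaks near 22 AP-1 and MAP kinase genes (median -0.08; 18 at an unadjusted p under 0.05; edgeR called 1 lower) and none of the 84 near 10 apoptosis and survival genes (median 0.02; 8 unadjusted; edgeR called 0). Dusp2, a MAP kinase phosphatase gene of the first of these lists, had 3386, 3261 and 3363 against 3779.6, 3715 and 3625 at its strongest peak. The groups were apart, but the log2 fold change of -0.15 did not pass (limma adjusted p = 0.0613); it did without the weakest 25% of peaks (adjusted p = 0.031) and after quantile normalization (adjusted p = 0.010). Bmf, which encodes a BH3-only protein that promotes cell death and was not on the list, had 315, 305 and 307 against 462, 471 and 439.8 at a peak 4485 bp outside the gene (-0.56 ± 0.11, limma adjusted p = 0.00453; chosen after its value was seen). Dusp5 had 1 lower peak, 67133 bp from the gene (-0.27, limma adjusted p = 0.0346).

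Most falls had the same direction in the other young states, and so did most rises. The libraries of these states are not among the 6 compared. They are not independent of the calls, because the fit estimated the spread of each peak over all 48 libraries. In all, 3167 peaks were called in young Ttran (5.88%), 537 in young Tprog (0.997%) and 1922 in aged Tterm (3.57%). The order of these counts depended on the fit. Fits of the compared groups alone called 892 in young Ttran, 35 in young Tprog and 3680 in aged Tterm, against 1378 in young Tterm. In young Ttran, 102 of the 105 lower peaks were below 0 and 67 were called lower, against 4.23% of all peaks, with a median of -0.34. In young Tprog (2 libraries a group), 99 were below 0 and 32 called lower, against 0.743%, with a median of -0.30. Of the 43 higher peaks, 30 were above 0 in Ttran, 11 called higher (1.65% of all peaks) and 4 called lower, and 40 were above 0 in Tprog, 5 of them called (0.254%). The Vgll4 peaks fell by 0.69, 0.94 and 1.04 on the log2 scale in Ttran, all called. D430041D05Rik rose in both, by 1.97 and 2.37 (limma adjusted p = 5.3e-05 and 7.2e-04). The young Zfp219 Ttran libraries were shallower, with 6589023 to 7952298 reads in peaks, and had a larger median spread between replicates (0.212 on the log2 scale against 0.129).

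In aged hosts most falls had the same direction and most rises did not. In aged Tterm (2 libraries a group), 92 of the 105 lower peaks were below 0, 32 called lower (2.51% of all peaks) and 1, at Bmf, called higher (1.06%). Of the 43 higher peaks, 29 were below 0 in aged Tterm, 11 were called lower and 2 higher, with a median of -0.25. The heat shock sites called higher in young Tterm turned around. At Hspa1a the aged Zfp219 libraries had 970.3 and 920.1 normalized reads and the aged OTC libraries 1297 and 1223, a log2 fold change of -0.41 (limma adjusted p = 1.7e-06). At Hsp90aa1 they had 257.7 and 248.3 against 419.5 and 405.1, a log2 fold change of -0.70 (limma adjusted p = 1.1e-07). At the 3′ ends of Dnajb1, Hsph1, Dnaja1, Hspd1 and Bag3 the aged log2 fold changes were -0.70, -0.58, -0.82, -0.88 and -1.11, each called. Among these only Dnajb1 was called in young Tterm, and Bag3 stood at -0.09 there. The remaining 3′ end peaks were not called in aged Tterm. That of Hspa1b stood at -0.38 (limma adjusted p = 0.156) and that of Hspb1 at 0.74 (limma adjusted p = 0.689). On the heat shock list 13 of 53 peaks were called lower and 0 higher in aged Tterm.

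**Figure D5:**
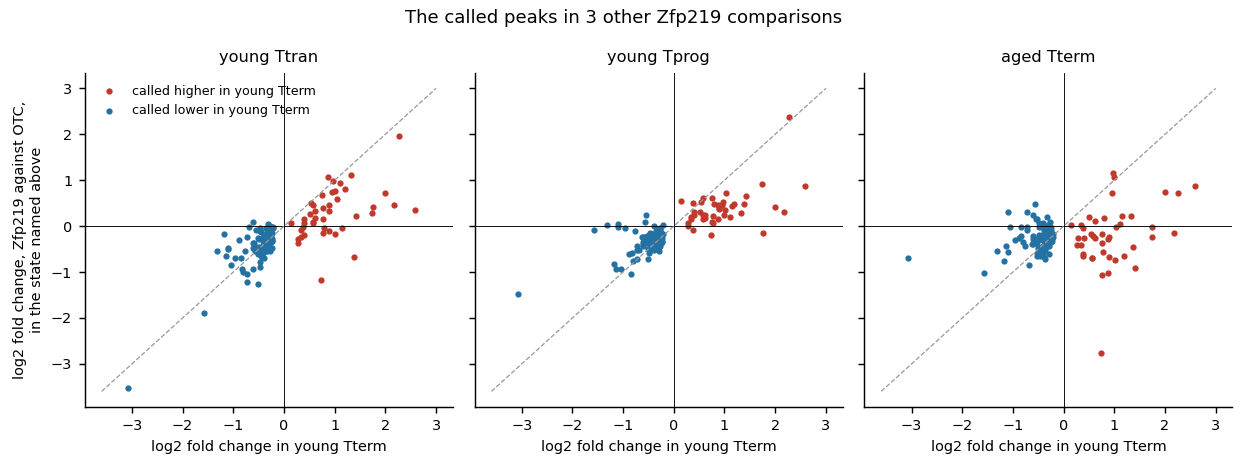
Log2 fold change of Zfp219 against OTC in young Ttran, young Tprog and aged Tterm (vertical axes) against that in young Tterm (horizontal axes) for the 148 peaks called in young Tterm. Of the 105 lower peaks, 102, 99 and 92 lie below 0 in the 3 panels, and of the 43 higher peaks 30, 40 and 14 lie above 0.

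The difference between young and aged Tterm was tested directly. These tests reuse the young Tterm libraries that made the calls. Over all peaks 503 differed (0.934%), 396 with the young change above the aged one (0.735%) and 107 below (0.199%). Of the 43 higher peaks 22 differed, and of the 105 lower peaks 6. The difference was 0.75 ± 0.08 at Hspa1a (limma adjusted p = 3.9e-11), 0.66 at Hspa1b (6.4e-08), 1.27 at Hsp90aa1 (2.8e-13), 1.27 at Dnajb1 (2.1e-06) and 1.04 at Hspa8 (1.8e-07). It was largest at Thy1, at 3.51: the aged Zfp219 Tterm libraries had 135 and 125 normalized reads there and the aged OTC Tterm libraries 959 and 829. The aged OTC Tprog libraries, at 135 and 122, were near the aged Zfp219 Tterm libraries. Bmf differed the other way, at -1.05 (limma adjusted p = 1.2e-04), with a fall of 0.56 in young and a rise of 0.48 in aged Tterm. Leaving out any one library lowered the count of 503 to between 196 and 374.

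Against young Ttran 164 peaks differed (0.304%), 128 above (0.238%) and 36 below (0.0668%), and 10 of the 43 higher peaks were among them and 1 of the 105 lower peaks. Hspa1a had 4258, 4616 and 4360 normalized reads in Zfp219 Ttran and 4617, 4673 and 4661 in OTC Ttran, and its change differed by 0.41 ± 0.07 (limma adjusted p = 2.6e-04). Thy1 went from higher in Tterm to lower in Ttran, with 223, 148 and 205 against 418, 439 and 422 there. Its change differed by 1.91 (limma adjusted p = 6.3e-15). Against young Tprog limma found 1 peak that differed (0.00186%), on an unplaced scaffold, edgeR found 2, and 3051 had an unadjusted p under 0.05.

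The Dusp5 libraries gave another reference within young Tterm. Tests of Zfp219 against Dusp5 reuse the Zfp219 libraries that made the calls, so they are not independent of them. Dusp5 encodes a phosphatase that switches off ERK in the nucleus; the Dusp5 comparison shares its OTC libraries with the Zfp219 one, and called 147 peaks (0.273%), 75 higher (0.139%) and 72 lower (0.134%). Zfp219 against Dusp5 called 217 (0.403%), 80 higher (0.149%) and 137 lower (0.254%). At Hspa1a the young Dusp5 Tterm libraries had 3034, 3195 and 3135 normalized reads, close to OTC and below all 3 Zfp219 libraries, and the tested difference of Zfp219 from Dusp5 was 0.30 (limma adjusted p = 1.2e-04). Hspa1b, Hsp90aa1 and Dnajb1 differed from Dusp5 by 0.25, 0.38 and 0.49 (limma adjusted p = 0.0062, 0.0028 and 0.02), and Hspa8 by 0.31, which did not pass (0.089). D430041D05Rik rose with both guides against the same OTC libraries, by 2.27 and 1.48. The difference between the guides of 0.79 did not pass (limma adjusted p = 0.55). The Vgll4 peak at 114936071 was lower than with Dusp5 by 0.58 on the log2 scale (limma adjusted p = 0.0028).

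The called peaks were also read in OTC cells of aged hosts, as the difference between progenitor and terminal libraries. Its group means share only the aged OTC Tterm pair with the comparisons above. The spread of each peak again came from all 48 libraries. Between them 10806 peaks were called (20.1%). Of the 43 higher peaks, 35 were more accessible in Tprog than in Tterm, 26 of them called (8.88% of all peaks) and 3 called the other way, with a median difference of 0.53 on the log2 scale. Of the 105 lower peaks, 82 were less accessible in Tprog, 45 called (11.2%) and 6 called the other way, with a median of -0.23. The heat shock peaks were among the former, with differences of 0.39 to 0.72, while at Thy1 (-2.79) and at the Tcf7 peak (2.54) the difference went the other way. Whether the sorted Tterm libraries hold different shares of neighbouring states was not tested.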

How the data were processed

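ATAC-seq was read 50 bases from each end. Per the submitters' processing notes the tools were Bowtie2 2.2.9, Picard 2.8.0, SAMtools 1.3.1, MACS2 2.1.1 and DESeq2 1.28.1 with build mm10; their roles are not given in the sources used here. The authors deposited 1 table of normalized signal, 53868 peaks by 48 libraries. The deposited values of each library were whole multiples of 1 step within 0.01 of a read (100% of values), so whole reads were recovered.

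The test was limma 3.58.1 (R 4.3.3; lmFit, eBayes with a trend) on log2(value + 1), with 48 libraries in 21 groups and Benjamini-Hochberg adjustment over all peaks; fold changes on this scale understate changes of weak peaks. Alternatives were a pseudocount of 8, no weakest 25% of peaks, limma's array quality weights, quantile normalization, rescaling by median of ratios, a fit of only the compared groups, a replicate block, edgeR 4.0.16 on whole reads and leaving out each library. Scripts were tested on simulated reads. The values were expected to be the authors' normalized counts, and the test was kept.

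Peaks inside a protein-coding gene took that gene (of several, the one with the nearest start), and other peaks the nearest gene within 100 kb; 51108 peaks had a gene of 21896 in the RefSeq GRCm38.p6 table. Promoter sequences came from the RefSeq table of that build. Named were all Zfp219 peaks; the 10 largest called changes in each direction and the 5 smallest p (mean at least 20, groups apart, 1 peak a gene); called peaks of the listed genes and the strongest peak of up to 4 genes a list; and genes with at least 2 called peaks. The comparison, its lists and this rule were chosen with earlier results of these data known. A result on 1 of the gene lists is not reported here.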

Additional observations from a re-analysis of the deposited data

Results flagged for a closer look

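The effect of the Zfp219 guide differed between groups of libraries by a test of the difference itself. Between young and aged Tterm 503 peaks differed. Among the peaks named by the rule these included Thy1 (3.51 on the log2 scale, young minus aged), Slit3 (2.33), Pifo (1.85), Hsp90aa1 (1.27), Dlc1 (1.15), Hspa1a (0.75) and Hspa1b (0.66). At Thy1 the Zfp219 libraries were higher than OTC in young Tterm and lower in aged Tterm, and the same holds for Hspa1a, Hspa1b and Hsp90aa1.

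Between young Tterm and young Ttran 164 peaks differed. Those named by the rule included Hpd (2.05, Tterm minus Ttran), Thy1 (1.91), Hsp90aa1 (0.48), Hspa1a (0.41) and Hspa1b (0.34). Between young Tterm and young Tprog 1 peak differed, on an unplaced scaffold where read placement is uncertain. Which libraries were prepared or sequenced together is not given in the sources used here.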

How the results depend on the processing

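Of 683 pairs of a called named peak and a setting, 495 kept the call, 188 lost it and 0 reversed; the 11 peaks that lost it in none of the 14 settings lie at D430041D05Rik, Hspa1a, Hspa1b, Hsp90aa1, Thy1, Ccl1, Septin9, Fam78a and, 3 of them, Vgll4. Counts of calls moved more. Zfp219 against OTC in young Tterm (148) gave 86 after quantile normalization, 1378 with the compared groups alone, 1496 with quality weights, 276 by edgeR and 38 to 58 with a library left out. Zfp219 against Dusp5 (217) gave 1543 alone, 1553 with weights, 384 by edgeR and 94 to 109. Aged Tterm (1922) gave 1202 after quantile normalization, 3680 alone, 3913 with weights and 601 to 859. Young Tprog (537) gave 35 alone, 304 with weights and 155 to 559. Young Ttran (3167) gave 892 alone, 1614 with weights and 1863 to 3005. The difference from aged Tterm (503) gave 2523 alone, 2104 with weights, 914 by edgeR and 196 to 374. The difference from Ttran (164) gave 93 alone, 264 with weights, 284 by edgeR and 74 to 289. The difference from Tprog (1) gave 2 with a pseudocount of 8, 2 without weak peaks, 3 after quantile normalization, 9 with weights, 2 by edgeR, and 1 to 67, the highest without young Zfp219 Tprog library 1. Counting only peaks in gene bodies left 0 calls on the targeted, exhaustion and effector lists. The causes were not tested.

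The replicate block gave 154 calls for Zfp219 against OTC in young Tterm, 213 against Dusp5, 1889 in aged Tterm, 519 in Tprog, 3175 in Ttran and, for the differences, 495 (aged), 157 (Ttran) and 2 (Tprog). Same-numbered Zfp219 and OTC libraries did not deviate together (r = 0.006, 0.003 and 0.010 across peaks), so the numbers were not taken as pairs.

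The weakest of 10 equal bins of peaks, under 14.3 normalized reads, gave 1 higher and 1 lower call; whether depth limited these was not tested.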

Other observations

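Young OTC and Zfp219 libraries of Tterm stood well above the aged ones at heat shock sites: Hspa1a had 2980.03 to 3886 normalized reads in the young and 920.1 to 1297 in the aged Tterm libraries, and Hsp90aa1 957 to 1520.4 and 248.3 to 419.5. Age, pools and processing of the aged and young hosts cannot be told apart here. The largest fall of all was at a weak site 61481 bp from Edil3 (chosen after its value was seen), with 0, 1.97 and 0.642 normalized reads in the Zfp219 libraries and 15.2, 11.01 and 14.1 in the OTC libraries. In young Ttran the same site stood at -3.54 on the log2 scale (limma adjusted p = 0.0005). Called lower peaks also lay in the regions of T cell receptor genes, where the nearest gene of the table is not the receptor: 1 at 22024 bp from Prss2 (-0.28) and 1 at 87194 bp from Dad1 (-0.39). At the Dad1 peak the Dusp5 libraries were lower still, by 0.38 (limma adjusted p = 0.0062).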
